A study of Homo sapiens with 18 samples.

Results

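Interferon-stimulated genes were described across parental and mesenchymal cells of 3 human lung cancer lines. The 41 members were chosen by name, as rows of the deposited expression table whose gene symbol is one of a list of interferon-induced genes. The rule reads no measured value, but the list was drawn up with earlier results of these data known. All 41 were found among the 19849 genes of the table. The lines were A549, NCI-H358 and HCC827, the last of which carries mutant EGFR. Parental cells were compared with mesenchymal derivatives, in which an epithelial-mesenchymal transition (EMT) had been induced by culture with 2 ng/ml TGFb for 3 weeks, with a change to medium without TGFb on the day before lysis. RNA of each of the 6 groups was hybridized to 3 Affymetrix U133 Plus 2.0 arrays, 18 arrays in all. The labels name no interferon treatment in any group. TGFb treatment cannot be told apart from the mesenchymal state, since all mesenchymal and no parental samples had been treated.

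Interferons are secreted proteins, and cells make most of those of type I and type III when they sense foreign nucleic acid. Type I and type III interferons act through their receptors on the kinases JAK1 and TYK2, which phosphorylate STAT2 among other proteins. STAT2 and IRF9 are parts of a complex, ISGF3, that binds the interferon-stimulated response element (ISRE) in the promoters of its target genes, whereas type II interferon acts on the gamma-activated sequence (GAS). The targets include sensors of viral RNA, enzymes and membrane proteins that block viruses, and factors that raise or limit the response itself.

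The promoters show a sequence that many of the members share. The members were chosen as interferon-induced genes, and the ISRE is an element of such genes. Its presence is therefore a description and no independent support for the choice. Windows from 250 bases before to 50 bases after the start were taken from the RefSeq promoter table (GRCh38.p14), which held 34 of the 41 members and lacked IFIT2, IFITM2, MX2, OAS2, OASL, IRF7 and USP18. The ISRE core, GAAA followed by any 2 bases and GAAA, was searched on both strands, and on the opposite strand it reads TTTC, any 2 bases and TTTC. It was found in the promoters of 23 of 34 members, against 4.03% of the 15018 genes of the array table with a promoter entry and 3.57% of all 35116 entries. The GAS core, TTC followed by any 3 bases and GAA, was in 11 of 34 promoters of members and in 8.88% of those of the array table's genes. A match to one core can share bases with a match to the other, and a match is a description of the letters, not a site that was shown to be bound. Stretches around the core are printed for members that hold it and on which the results below turn, 5′ to 3′ on the strand of the gene, with the ISRE cores in capitals.

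A gene is said to rise or fall here if its change passed an adjusted p below 0.05 and a fold above 2. The first 3 genes fell in all 3 lines upon EMT. They are IFIT1 (chr10:89392485-89392564, plus strand), IFIT3 (chr10:89327840-89327919, plus strand) and ISG20 (chr15:88638912-88638991, plus strand). IFIT1 and IFIT3 each hold 2 cores in the stretch shown and ISG20 holds 1. OAS1, the remaining gene that fell in all lines, has a promoter entry without the ISRE core in this window.
IFIT1: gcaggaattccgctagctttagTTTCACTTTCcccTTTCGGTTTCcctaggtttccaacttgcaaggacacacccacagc
IFIT3: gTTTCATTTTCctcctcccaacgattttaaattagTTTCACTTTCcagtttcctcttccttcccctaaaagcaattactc
ISG20: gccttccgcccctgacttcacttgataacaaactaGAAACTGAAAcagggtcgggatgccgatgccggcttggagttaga

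The next 3 were among the largest decreases in NCI-H358 and were not called in the other lines. They are DDX60 (chr4:168318761-168318840, minus strand), IFIH1 (chr2:162318661-162318740, minus strand) and RSAD2 (chr2:6877597-6877676, plus strand). RSAD2 already read low in parental A549 and HCC827 cells, which leaves little room to see a decrease there. CMPK2 and DDX58, which also fell strongly in NCI-H358, have no ISRE core in their window.
DDX60: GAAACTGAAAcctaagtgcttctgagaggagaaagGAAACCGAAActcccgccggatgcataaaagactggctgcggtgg
IFIH1: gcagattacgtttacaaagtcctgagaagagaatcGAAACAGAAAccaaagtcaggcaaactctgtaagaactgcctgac
RSAD2: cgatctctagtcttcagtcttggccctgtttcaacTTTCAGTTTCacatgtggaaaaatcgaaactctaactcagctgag

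The last 5 carry the same core and moved otherwise. IFITM3 (chr11:320851-320930, minus strand) was not called in NCI-H358. HERC5 (chr4:88457010-88457089, plus strand), IFI44 (chr1:78649736-78649815, plus strand), GBP1 (chr1:89065291-89065370, minus strand) and SAMD9 (chr7:93118071-93118150, minus strand) changed in opposite directions in different lines.
IFITM3: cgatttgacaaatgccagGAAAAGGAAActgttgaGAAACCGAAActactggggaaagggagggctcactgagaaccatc
HERC5: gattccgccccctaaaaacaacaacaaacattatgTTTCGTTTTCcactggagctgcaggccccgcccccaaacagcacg
IFI44: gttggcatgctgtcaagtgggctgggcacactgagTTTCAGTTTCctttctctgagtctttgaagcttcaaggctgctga
GBP1: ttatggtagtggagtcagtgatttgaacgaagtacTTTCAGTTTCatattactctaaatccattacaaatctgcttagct
SAMD9: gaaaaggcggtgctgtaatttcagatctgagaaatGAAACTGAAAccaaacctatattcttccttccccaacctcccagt

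The core was present in promoters of members of each kind. Of members with a promoter entry, it was in 4 of the 8 called lower in A549, 12 of the 15 called lower in HCC827 and 18 of the 25 called lower in NCI-H358. It was in 2 of the 4 called lower in no line, where decreases under 2-fold, such as those of IFIT5, are not counted.

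The deposited values are log2 levels after RMA, with 1 probe set per gene, so a level can be compared between groups for 1 gene but not between genes. The medians of the 18 arrays lay between 6.31 and 6.47. Over all genes the standard deviation (SD) of the differences between arrays of a group was 0.163 to 0.282, and between the states of a line it was 0.719 to 0.896. The labels were checked with known markers. CDH1, the epithelial cadherin, fell in all 3 lines (log2 fold changes -5.81, -2.95 and -3.94 in A549, HCC827 and NCI-H358). The mesenchymal filament gene VIM rose in HCC827 (2.03) and NCI-H358 (2.31) and had a log2 fold change of 0.79 in A549, which did not pass the fold threshold. Of 12 leukocyte and endothelial markers, chosen to look for other cell types, limma called 1 in any line, CD14 in A549, which fell (-1.36). The leukocyte gene PTPRC, which encodes CD45, stayed between 2.83 and 3.18 in the means of all groups. It had the lowest group mean, as read, of the 9 leukocyte markers, and the highest was that of CD68, 7.55 in parental HCC827 cells. That mean lies above the median of every array, so a lack of CD68 in these cultures cannot be assumed. The summed linear level of the 9 leukocyte markers was 268.8 to 315.7 on the parental and 339.3 to 377.3 on the mesenchymal NCI-H358 arrays, 393.2 to 408.0 on the parental and 351.7 to 379.8 on the mesenchymal HCC827 arrays, and 297.4 to 305.5 on the parental and 288.4 to 309.2 on the mesenchymal A549 arrays. For the 3 endothelial markers it was, on parental and then mesenchymal arrays, 94.4 to 99.4 and 78.7 to 87.6 in NCI-H358, 71.2 to 85.6 and 87.0 to 93.0 in HCC827, and 73.5 to 79.5 and 78.9 to 92.2 in A549. Each sum adds levels of different genes, so the genes that read highest, such as CD68, weigh most. A sum is therefore no measure of the amount of RNA of a cell type. The part of these markers in the results was not tested. The first parental array of HCC827 stood apart, with a level on average 0.34 higher over the 41 members than on the other two, so results that rest on it are also given without it.

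The members started from different levels in the 3 lines. Over the same 41 genes the median level was 5.96 in parental A549 cells, 8.74 in parental HCC827 cells and 9.15 in parental NCI-H358 cells. Relative to parental A549, limma called 31 members higher in parental HCC827 cells (10.2% of all genes were called higher) and 36 higher in parental NCI-H358 cells (10.7%), at an adjusted p below 0.05 and a fold above 2. No member was called lower in either comparison (8.62% and 9.79% of all genes), 2 members in each being lower at an unadjusted p under 0.05. By the methods' t-test 31 and 36 members differed at the same thresholds, and 31 differed between HCC827 and A549 also without the first parental HCC827 array. The median differences were 2.52 and 2.82 on the log2 scale, against -0.048 and -0.021 over all genes.

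**Figure D1:**
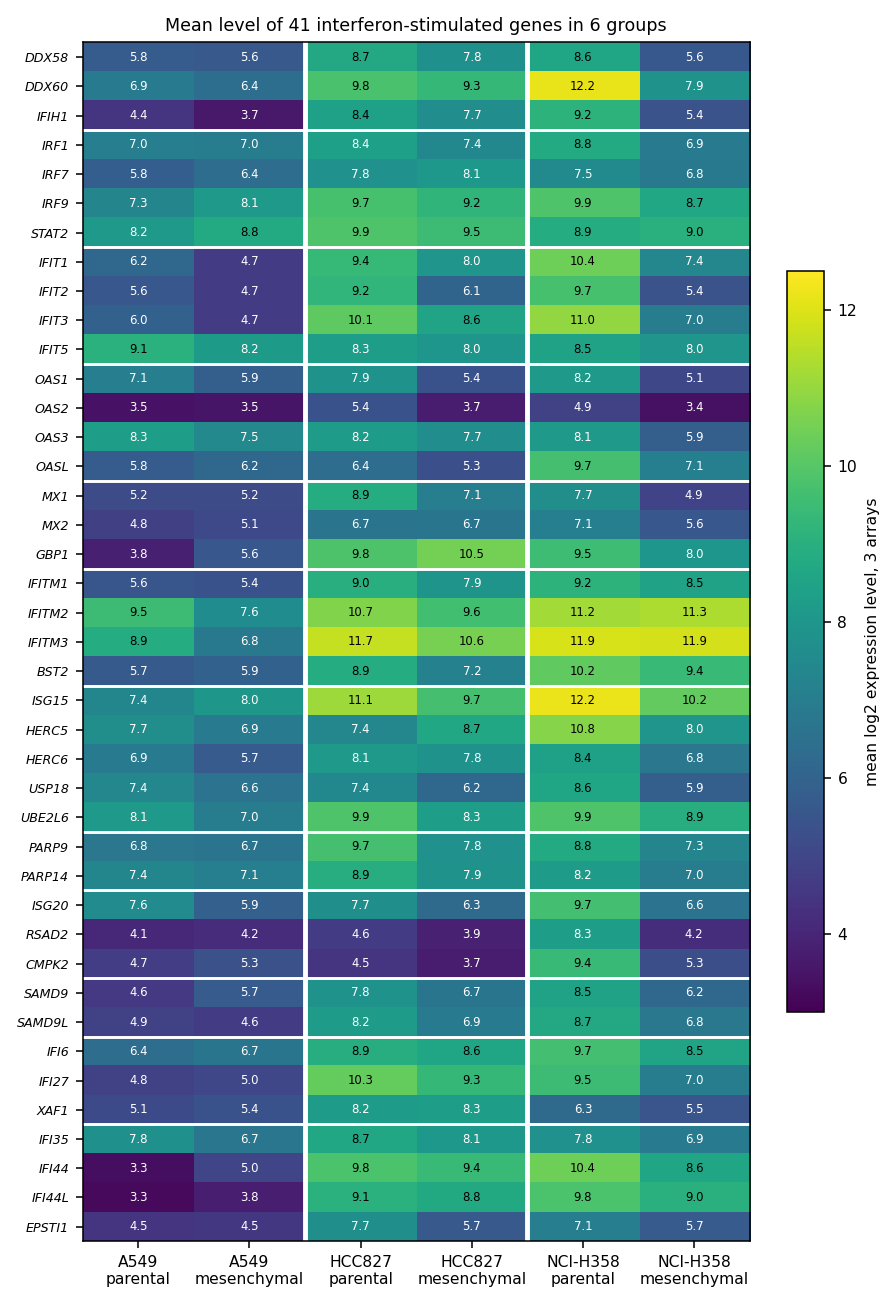
Mean log2 level of each of the 41 members (rows, ordered by role, white lines between roles) in the 6 groups (columns, 3 arrays each), with the value printed in each cell. Parental A549 cells had 2 members above a level of 9, parental HCC827 cells 15 and parental NCI-H358 cells 21.

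The largest measured differences were those of the IFI44 pair and GBP1. IFI44, an interferon-induced gene whose protein limits some viruses, had levels of 3.27, 3.35 and 3.43 on the parental A549 arrays, 10.11, 9.63 and 9.68 on the HCC827 arrays and 10.44, 10.35 and 10.46 on the NCI-H358 arrays. The A549 arrays were below all others, by 6.46 relative to HCC827 and 7.07 relative to NCI-H358 on the log2 scale as measured. GBP1, a GTPase that attacks the membranes of intracellular pathogens, differed by 6.02 and 5.71, and the neighbour of IFI44, IFI44L, by 5.83 and 6.57. The table gives no detection calls, and parental A549 cells read these 3 genes near the low end of the array, with means of 3.35, 3.82 and 3.25 for IFI44, GBP1 and IFI44L, so these differences may be understated. IFI27, which encodes a small mitochondrial protein, differed by 5.43 between HCC827 and A549. IFIT3 differed by 4.17 and 5.01, and DDX60 by 5.32 between NCI-H358 and A549. The 10 members not called between HCC827 and A549 included ISG20, RSAD2 and CMPK2, 3 enzymes of nucleotides and RNA, with differences of 0.14, 0.54 and -0.27.

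Between parental NCI-H358 and parental HCC827 cells the members were closer. Of the 41, 10 were higher in NCI-H358 (7.27% of all genes) and 3 were lower (7.91%), with a median difference of 0.42. CMPK2, a mitochondrial nucleotide kinase, read 5.01, 4.15 and 4.25 on the HCC827 arrays and 9.38, 9.36 and 9.57 on the NCI-H358 arrays, a difference of 4.97 (SE 0.18). No array of one line reached the other. RSAD2, which encodes viperin, an enzyme that makes a chain-terminating nucleotide, differed by 3.65, HERC5, the ligase that attaches ISG15 to proteins, by 3.38, OASL by 3.33 and DDX60 by 2.43. The 3 lower members were XAF1, MX1 and STAT2, at -1.94, -1.21 and -1.01, the last not called without the first parental array of either line.

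**Figure D2:**
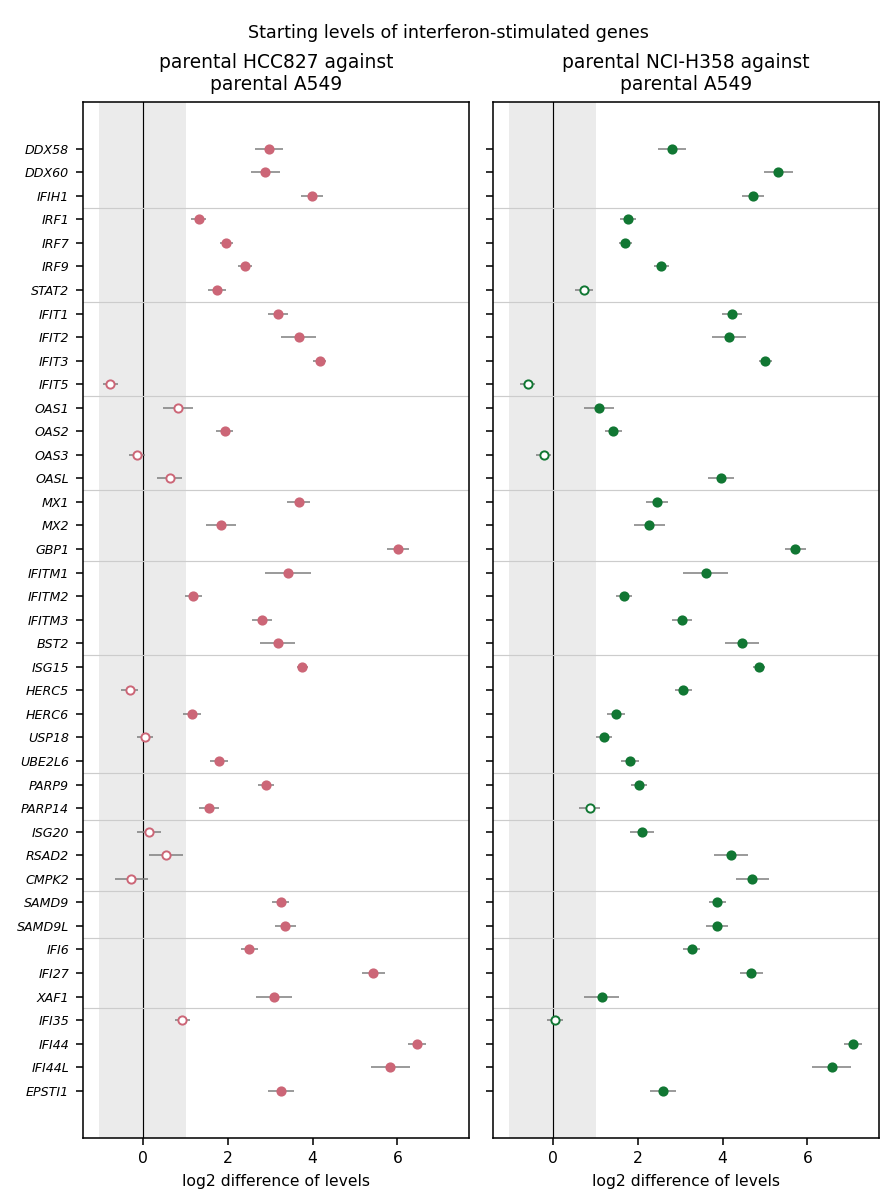
Difference of the log2 level between parental HCC827 or NCI-H358 cells and parental A549 cells for each member, with its 95% confidence interval (limma, 3 arrays a group). Filled points passed an adjusted p below 0.05 and a 2-fold difference, the grey band marks differences under 2-fold, and every filled point lies on the side of higher levels outside A549.

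Upon EMT, most members fell in NCI-H358, about as many fell as did not in HCC827, and in A549 12 of 41 were called, in both directions. In NCI-H358, 30 of 41 members fell (5.42% of all genes did) and none rose (3.96%), limma and the methods' t-test both finding 0 higher, with 0 also at an unadjusted p under 0.05. In HCC827, 20 fell (6.58% of all genes) and 1 rose (4.89%). In A549, 9 fell (3.87% of all genes) and 3 rose (4.15%). The median log2 fold change of the members was -1.78 in NCI-H358, -0.95 in HCC827 and -0.11 in A549, where that of all genes was 0.015, 0.0051 and -0.021. On all 3 mesenchymal arrays the level was below all 3 parental arrays for 38 members in NCI-H358 (24.4% of all genes), 34 in HCC827 (27.4%) and 17 in A549 (31.4%). It was above them for 2 members in NCI-H358 (27.2% of all genes), 3 in HCC827 (23.8%) and 12 in A549 (21.0%). Without the first parental array of HCC827, 16 members fell in that line. IFITM1, IFITM2, OASL and PARP14 were the 4 whose calls were lost. In RNA of a whole culture, fewer cells that express a gene and less RNA per cell cannot be told apart.

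Decreases above 5-fold were most frequent in NCI-H358. At the study's own thresholds, an adjusted p below 1e-05 and a fold above 5, 15 members were lower in NCI-H358 (1.36% of all genes), 2 in HCC827, IFIT2 and OAS1 (1.63%), and 0 in A549 (0.736%), where limma had 17 members lower at an unadjusted p under 0.05 and 9 lower at the 2-fold threshold, as did the methods' t-test. The mean level in mesenchymal NCI-H358 cells was still above that of parental A549 cells for 28 of the 41 members, and in mesenchymal HCC827 cells for 33, a comparison of means that was not tested.

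**Figure D3:**
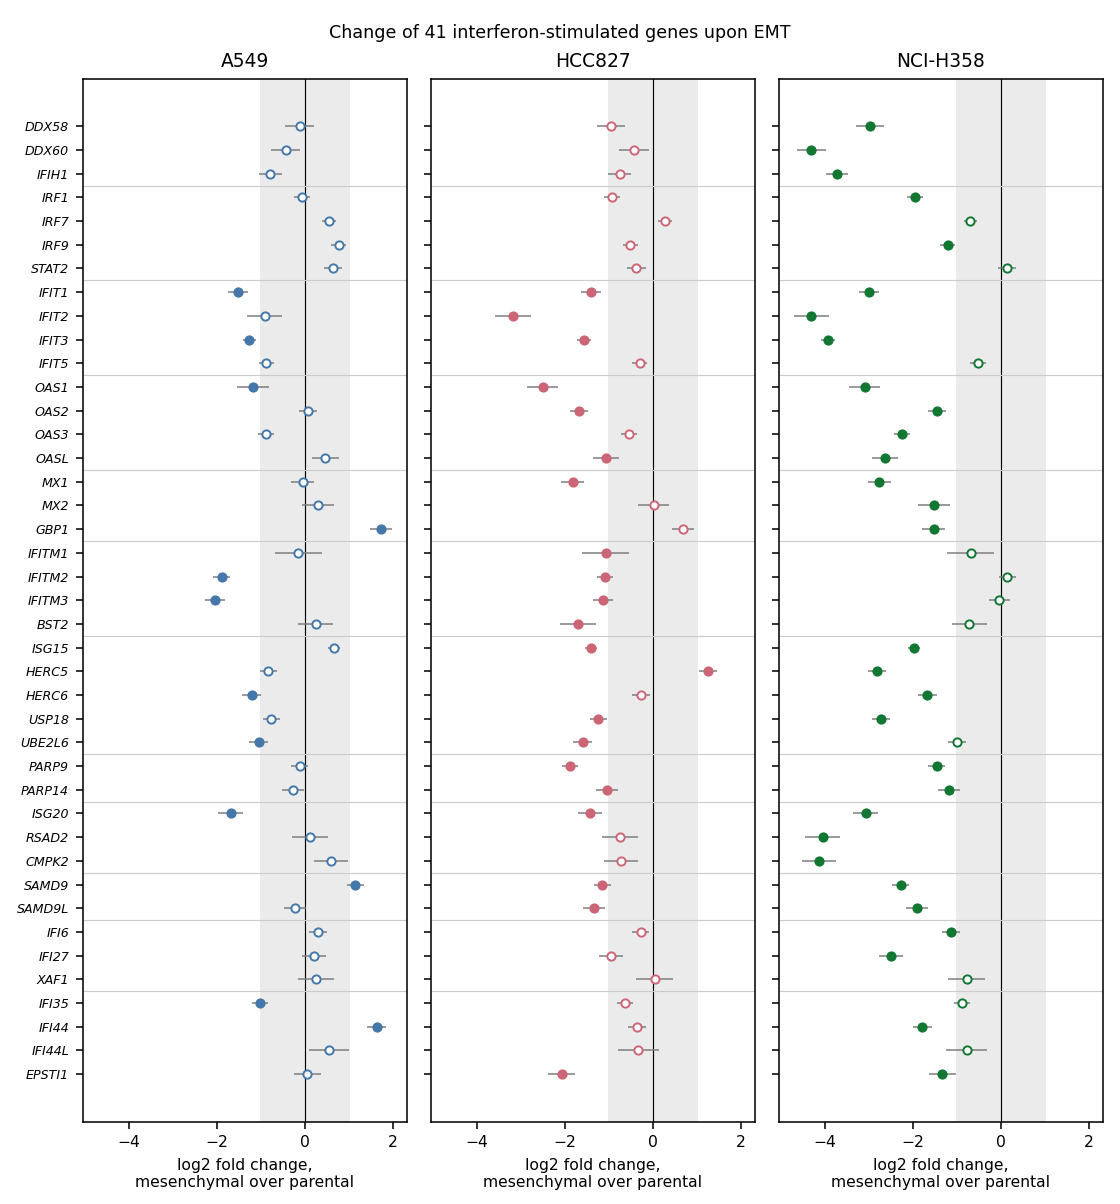
Log2 fold change of each member, mesenchymal over parental, in the 3 lines, with its 95% confidence interval (limma, 3 arrays a group) and members ordered by role. Filled points passed an adjusted p below 0.05 and a 2-fold change, the grey band marks changes under 2-fold, and the filled points on the left number 9, 20 and 30 from A549 to NCI-H358.

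Only 4 members fell in every line, IFIT1, IFIT3, ISG20 and OAS1. IFIT1 (Entrez gene 3434), which binds viral RNA that lacks a host-type cap, had levels of 6.24, 6.19 and 6.08 on the parental and 4.89, 4.41 and 4.66 on the mesenchymal A549 arrays. In HCC827 they were 9.54, 9.19 and 9.34 against 7.88, 7.97 and 8.02, and in NCI-H358 10.36, 10.32 and 10.49 against 7.38, 7.49 and 7.30. The groups did not overlap in any line, and the log2 fold changes were -1.52, -1.40 and -3.00 (SE 0.11 each, adjusted p = 4.79e-09, 9.33e-09 and 7.12e-13 with limma). IFIT3 (Entrez gene 3437), which stabilizes IFIT1 in a complex, fell by 1.26, 1.57 and 3.92 on the log2 scale (SE 0.075 each), and its 3 mesenchymal NCI-H358 arrays, at 7.18, 6.92 and 7.03, lay far below the parental ones at 11.00, 10.92 and 10.97.

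ISG20 (Entrez gene 3669), an exonuclease that degrades RNA, read 7.75, 7.51 and 7.48 on the parental and 5.92, 5.58 and 6.21 on the mesenchymal A549 arrays. Its log2 fold changes were -1.68, -1.43 and -3.08 (SE 0.13 each). OAS1 (Entrez gene 4938), which on binding of RNA makes the messenger 2-5A that activates RNase L, read 8.32, 7.59 and 7.77 on the parental and 5.28, 5.32 and 5.57 on the mesenchymal HCC827 arrays, and 7.85, 8.29 and 8.33 against 5.05, 5.02 and 5.10 in NCI-H358. Its log2 fold changes were -1.18, -2.51 and -3.10 (SE 0.17 each, adjusted p = 2.00e-05, 1.43e-09 and 1.13e-10 with limma). Parental and mesenchymal arrays did not overlap for either gene in any line, and the first parental HCC827 array was the highest of its group for OAS1.

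**Figure D4:**
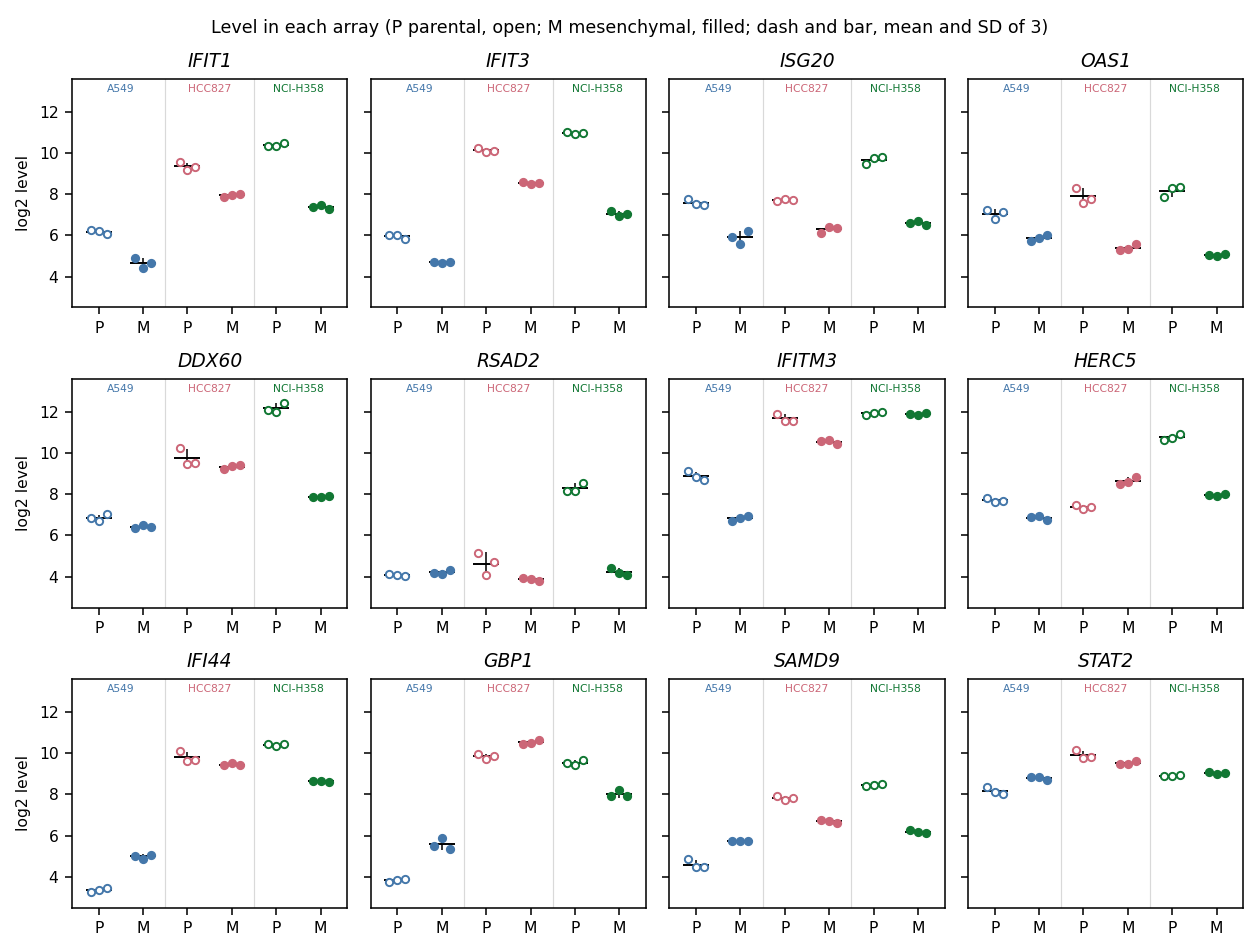
Log2 level of 12 members on each of the 18 arrays (open, parental; filled, mesenchymal; dash and bar, mean and SD of 3 arrays). The top row holds the 4 genes that fell in all lines; below are DDX60, RSAD2 and IFITM3, the 4 genes called in opposite directions, and STAT2, which was called in no line.

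Among the RNA sensors, all 3 members fell in NCI-H358 and none was called in the other lines. DDX60, a helicase linked to RNA sensing, read 12.11, 11.99 and 12.45 on the parental and 7.86, 7.84 and 7.92 on the mesenchymal NCI-H358 arrays, a log2 fold change of -4.31 (SE 0.16, adjusted p = 7.90e-13 with limma). In HCC827, where the parental arrays read 10.24, 9.49 and 9.53 and the mesenchymal ones 9.20, 9.37 and 9.41, its log2 fold change was -0.43, and in A549 it was -0.44. The first parental HCC827 array was the highest there. IFIH1, which encodes the sensor MDA5, and DDX58 (RIGI in RefSeq), which encodes the sensor RIG-I, had log2 fold changes of -3.73 and -2.98 in NCI-H358, -0.75 and -0.95 in HCC827 and -0.78 and -0.11 in A549.

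Of the 4 transcription factors, 2 fell in NCI-H358 and none was called in the other lines. IRF9 and IRF1 fell in NCI-H358 by 1.21 and 1.95 on the log2 scale. IRF9, the DNA-binding part of ISGF3, had log2 fold changes of 0.77 in A549 and -0.51 in HCC827, and IRF1, an activator induced chiefly by type II interferon, of -0.05 and -0.92. IRF7, an amplifier of type I interferon production, and STAT2 were called in no line. STAT2 read 8.87, 8.88 and 8.92 on the parental and 9.09, 8.98 and 9.03 on the mesenchymal NCI-H358 arrays, a log2 fold change of 0.14 with a 95% interval of -0.07 to 0.35. In A549 its log2 fold change was 0.64 and in HCC827 -0.37.

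In the IFIT family, some of whose proteins bind viral RNA, IFIT2 had the largest decrease of any member in HCC827 and, level with DDX60 (-4.31 each), in NCI-H358. It read 9.88, 8.84 and 9.02 on the parental and 6.05, 5.96 and 6.19 on the mesenchymal HCC827 arrays, a log2 fold change of -3.18 (SE 0.19, adjusted p = 3.13e-10 with limma). In NCI-H358 the arrays read 9.87, 9.63 and 9.70 against 5.39, 5.30 and 5.56, a log2 fold change of -4.31, and in A549 the log2 fold change was -0.91. All mesenchymal arrays of both lines were lower by more than the spread within the groups. IFIT5 was called in no line, with log2 fold changes of -0.87, -0.30 and -0.52, and unlike the other 3 it was not higher in parental HCC827 or NCI-H358 than in parental A549 cells (-0.77 and -0.59).

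In the OAS family all 4 members fell in NCI-H358, 3 in HCC827 and only OAS1 in A549. OAS2, OAS3 and OASL, the last of which lacks the synthetase activity, had log2 fold changes of -1.45, -2.26 and -2.63 in NCI-H358, -1.68, -0.55 and -1.07 in HCC827 and 0.08, -0.88 and 0.47 in A549. OAS2 read close to the low end in all mesenchymal groups, with means of 3.54, 3.71 and 3.43 in A549, HCC827 and NCI-H358. With a log2 fold change of 0.08 in A549, its parental level there was also near the low end, so a decrease could hardly have been seen. The call of OASL in HCC827 was lost without the first parental array.

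Of the GTPases, MX1, which blocks the nucleocapsids of influenza and other viruses, fell in HCC827 (-1.82) and in NCI-H358 (-2.77) and had a log2 fold change of -0.04 in A549. MX2, which acts on retroviruses at the nuclear pore, fell in NCI-H358 (-1.52) and had log2 fold changes of 0.30 in A549 and 0.02 in HCC827. GBP1 rose in A549, where the parental arrays read 3.76, 3.83 and 3.87 and the mesenchymal ones 5.51, 5.86 and 5.33 (log2 fold change 1.74, SE 0.12, adjusted p = 2.45e-09 with limma). It fell in NCI-H358, from 9.51, 9.45 and 9.66 to 7.90, 8.19 and 7.93 (-1.53, SE 0.12). In HCC827 it read 9.96, 9.71 and 9.84 on the parental and 10.44, 10.47 and 10.66 on the mesenchymal arrays, a log2 fold change of 0.68 that was below the fold threshold.

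The membrane restriction factors were the one role with no member called in NCI-H358, whereas 4 of 4 fell in HCC827 and 2 in A549. IFITM3, which blocks the entry of enveloped viruses from endosomes, read 9.13, 8.82 and 8.70 on the parental and 6.71, 6.87 and 6.93 on the mesenchymal A549 arrays, a log2 fold change of -2.05 (SE 0.11, adjusted p = 1.11e-10 with limma). In NCI-H358 it read 11.84, 11.93 and 12.00 against 11.88, 11.85 and 11.95, a log2 fold change of -0.03 with a 95% interval of -0.26 to 0.20. In HCC827 it fell by 1.13. IFITM2 had log2 fold changes of -1.89, -1.09 and 0.15 in A549, HCC827 and NCI-H358, with the call in HCC827 lost without the first parental array. The probe sets of IFITM2 and IFITM3 are of the kind that can also bind other transcripts, and the genes are close in sequence, so their signals may not be separate. IFITM1 was called in HCC827 alone (-1.07, SE 0.25, and not without the first parental array), and so was BST2, which tethers budding virus (-1.70), for which the NCI-H358 value was -0.71.

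In the ISG15 group, ISG15 itself, a ubiquitin-like protein, fell from 11.08, 11.11 and 11.15 to 9.71, 9.79 and 9.61 in HCC827 (-1.41) and from 12.23, 12.21 and 12.18 to 10.22, 10.23 and 10.23 in NCI-H358 (-1.98). Its A549 arrays read 7.27, 7.39 and 7.39 for parental and 7.95, 8.13 and 7.97 for mesenchymal cells (0.66). No groups of ISG15 overlapped, and the A549 difference had the opposite sign. UBE2L6, the conjugating enzyme of ISG15, fell in A549 (-1.05, a call lost without the first parental A549 array) and HCC827 (-1.60) and had a log2 fold change of -0.99 in NCI-H358, just below the fold threshold. USP18, which removes ISG15 and restrains the type I receptor, fell in HCC827 (-1.24) and NCI-H358 (-2.72), with -0.76 in A549.

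HERC5 and its relative HERC6 parted in HCC827. HERC5 read 7.49, 7.30 and 7.39 on the parental and 8.51, 8.59 and 8.85 on the mesenchymal HCC827 arrays and was the one member that rose there (log2 fold change 1.26, SE 0.09, adjusted p = 6.43e-09 with limma). In NCI-H358 it fell from 10.65, 10.74 and 10.94 to 7.95, 7.93 and 7.99 (-2.82, SE 0.09), which brought the mesenchymal arrays of NCI-H358 below those of HCC827. In A549 its log2 fold change was -0.83. HERC6 fell in A549 (-1.20) and NCI-H358 (-1.67) and had a log2 fold change of -0.27 in HCC827.

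CMPK2 and RSAD2 fell in NCI-H358 by 4.14 and 4.06 on the log2 scale (SE 0.18 and 0.19, adjusted p = 7.06e-12 and 1.77e-11 with limma). RSAD2 read 8.13, 8.16 and 8.56 on the parental and 4.44, 4.18 and 4.08 on the mesenchymal arrays there. The last 2 of these lie within the range of its A549 arrays, 4.05 to 4.32 over both states, and the first just above it. In HCC827 the log2 fold changes of CMPK2 and RSAD2 were -0.72 and -0.75 and in A549 0.61 and 0.12. No array of HCC827 or A549 read either gene above 5.47, which leaves little room to see a decrease there.

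SAMD9 and SAMD9L, which are neighbours and limit poxviruses, parted in A549. SAMD9 read 4.85, 4.45 and 4.46 on the parental and 5.75, 5.76 and 5.71 on the mesenchymal A549 arrays and rose (1.15, SE 0.09). It fell in HCC827, from 7.93, 7.74 and 7.83 to 6.75, 6.70 and 6.61 (-1.15), and in NCI-H358, from 8.41, 8.48 and 8.50 to 6.28, 6.16 and 6.12 (-2.27). SAMD9L fell in HCC827 (-1.33) and NCI-H358 (-1.91), with -0.21 in A549. PARP9 and PARP14, which modify proteins with ADP-ribose, fell in HCC827 (-1.88 and -1.04) and NCI-H358 (-1.46 and -1.18) and read -0.11 and -0.26 in A549, and PARP14 was not called in HCC827 without the first parental array.

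Of the remaining members, IFI44 rose in A549, from 3.27, 3.35 and 3.43 to 5.02, 4.88 and 5.06 (log2 fold change 1.64, SE 0.10, adjusted p = 5.10e-10 with limma). It fell in NCI-H358, from 10.44, 10.35 and 10.46 to 8.64, 8.65 and 8.61 (-1.78, SE 0.10), and in HCC827 its log2 fold change was -0.36. Even after the increase, the A549 arrays read below every array of the other lines. EPSTI1 fell in HCC827 (-2.07) and NCI-H358 (-1.34) and had 0.06 in A549. IFI6 and IFI27 fell in NCI-H358 (-1.14 and -2.50). IFI35 fell in A549 (-1.02) and had log2 fold changes of -0.63 and -0.88 in HCC827 and NCI-H358. The call of IFI35 in A549 was lost without the first parental or the first mesenchymal A549 array. IFI44L and XAF1, an antagonist of an apoptosis inhibitor, were called in no line, with -0.78 each in NCI-H358.

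The change upon EMT was compared directly between lines in the same limma fit, and the 3 comparisons share arrays. Relative to A549, the change in NCI-H358 was lower for 31 members (6.74% of all genes) and higher for 2 (6.01%), IFITM2 and IFITM3, at 2.04 and 2.02. The largest differences were those of CMPK2 (-4.75), RSAD2 (-4.18), DDX60 (-3.87), SAMD9 (-3.43) and IFI44 (-3.42). In parental A549 cells 12 of the 41 members had a mean level below 5, against 2 in HCC827 and 1 in NCI-H358. Such low levels leave little room to see a decrease in A549, and their part in these differences was not tested. The change in HCC827 relative to A549 was lower for 17 members (7.06%) and higher for 1 (6.29%), HERC5, at 2.09 (SE 0.13). SAMD9 (-2.30), IFIT2 (-2.27), EPSTI1 (-2.13) and ISG15 (-2.07) had the other largest differences. Without the first parental HCC827 array 17 members differed in their change between HCC827 and A549, and the calls of STAT2 and GBP1 were lost. With the first parental array of each line left out at once, 14 differed. The change in NCI-H358 relative to HCC827 was lower for 20 members (5.53%) and higher for 2 (5.46%), again IFITM2 and IFITM3, at 1.24 and 1.10, the second not called without the first parental HCC827 array. HERC5 (-4.08), DDX60 (-3.88), CMPK2 (-3.42), RSAD2 (-3.31) and IFIH1 (-2.97) differed most. CMPK2 and RSAD2 were the 2 members with a mean level below 5 in parental HCC827 cells. This leaves little room to see them fall in HCC827, and its part in their differences was not tested. The median difference of change over the members was -1.69, -0.87 and -0.97 in these 3 comparisons.

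Neighbouring genes did not always move together. By the order of protein-coding genes in RefSeq (GRCh38.p14), 20 members lie in 9 runs in which no other protein-coding gene comes between. CMPK2 and RSAD2 are such neighbours and fell by similar amounts in NCI-H358, as did IFIT2 and IFIT3 (-4.31 and -3.92). IFIT1 lies next to IFIT5, for which the values in NCI-H358 were -3.00 and -0.52, the second not called. HERC5 lies next to HERC6, SAMD9 next to SAMD9L, IFI44 next to IFI44L and MX1 next to MX2, and in each of these pairs at least 1 line had one gene called and the other not. In the run of OAS1, OAS3 and OAS2, all fell in NCI-H358 and OAS1 alone fell in A549. The difference between neighbours was not tested.

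The components of the interferon pathway outside the members were looked at in a list of 38 ligands, receptors, kinases, inhibitors and sensing genes, of which 37 were in the table. In A549 1 rose (4.15% of all genes did) and 1 fell (3.87%), in HCC827 1 rose (4.89%) and 4 fell (6.58%), and in NCI-H358 none rose (3.96%) and 3 fell (5.42%), with 4 higher in NCI-H358 at an unadjusted p under 0.05 and 3 called in all by the methods' t-test. Counts this small among 37 genes are near the shares of all genes and are no result about the pathway as a whole.

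Among the ligands, IFNE, an epithelial type I interferon best known from the reproductive tract, rose in A549 from 4.83, 4.88 and 4.59 to 6.76, 7.19 and 6.79 (2.14, SE 0.15) and in HCC827 from 4.64, 4.95 and 4.49 to 6.94, 7.26 and 6.77 (2.30, SE 0.15). In NCI-H358 it read 3.99, 3.92 and 3.71 against 4.00, 3.78 and 4.01, and the difference from the change in HCC827 was -2.24. The other 8 ligands measured had group means between 2.41 and 4.98, and none was called. IFNB1 read 4.05 to 4.42 in the means of all groups. These are levels of RNA on the array and say nothing of secreted protein.

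The receptors of the 3 interferon types were called once, for IFNLR1, the specific chain of the type III receptor. It read 6.96, 7.00 and 6.52 on the parental and 4.75, 4.72 and 4.98 on the mesenchymal NCI-H358 arrays, a log2 fold change of -2.01 (SE 0.20), with -0.59 in A549 and -0.05 in HCC827. The chains of the type I receptor, IFNAR1 and IFNAR2, had log2 fold changes of -0.61 and -0.70 in A549. The values were -0.11 and 0.10 for HCC827, and 0.17 and -0.23 for NCI-H358. In the same order of lines, IFNGR1 and IFNGR2, the chains of the type II receptor, had 0.45 and -0.21, 0.17 and -0.48, and 0.18 and -0.43, and IL10RB, the shared chain of the type III receptor, had -0.36, -0.93 and -0.27. Parental NCI-H358 cells read IFNAR2 at 5.93, 6.19 and 6.23, below the 8.33 to 8.39 of A549 and the 8.52 to 8.62 of HCC827.

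Of the inhibitors, SOCS3 fell in HCC827 (-1.58), with 0.21 in A549 and -0.33 in NCI-H358, and SOCS1 had log2 fold changes of 0.35, 0.07 and 0.12. STING1, the adaptor of cytosolic DNA sensing, fell in HCC827 (-1.06) and from 7.55, 7.60 and 7.99 to 5.35, 5.39 and 5.51 in NCI-H358 (-2.30, SE 0.18). In HCC827 its first parental array read 7.68 against 6.65 and 6.98, and without it the call was lost. TLR3, the endosomal sensor of RNA, fell in HCC827 from 6.64, 6.41 and 6.49 to 3.23, 3.06 and 3.30 (-3.32), and in the other lines it read 2.74 to 3.25 in both states. The mesenchymal HCC827 arrays thus read near the low end, and the decrease is as measured and may be understated.

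**Figure D5:**
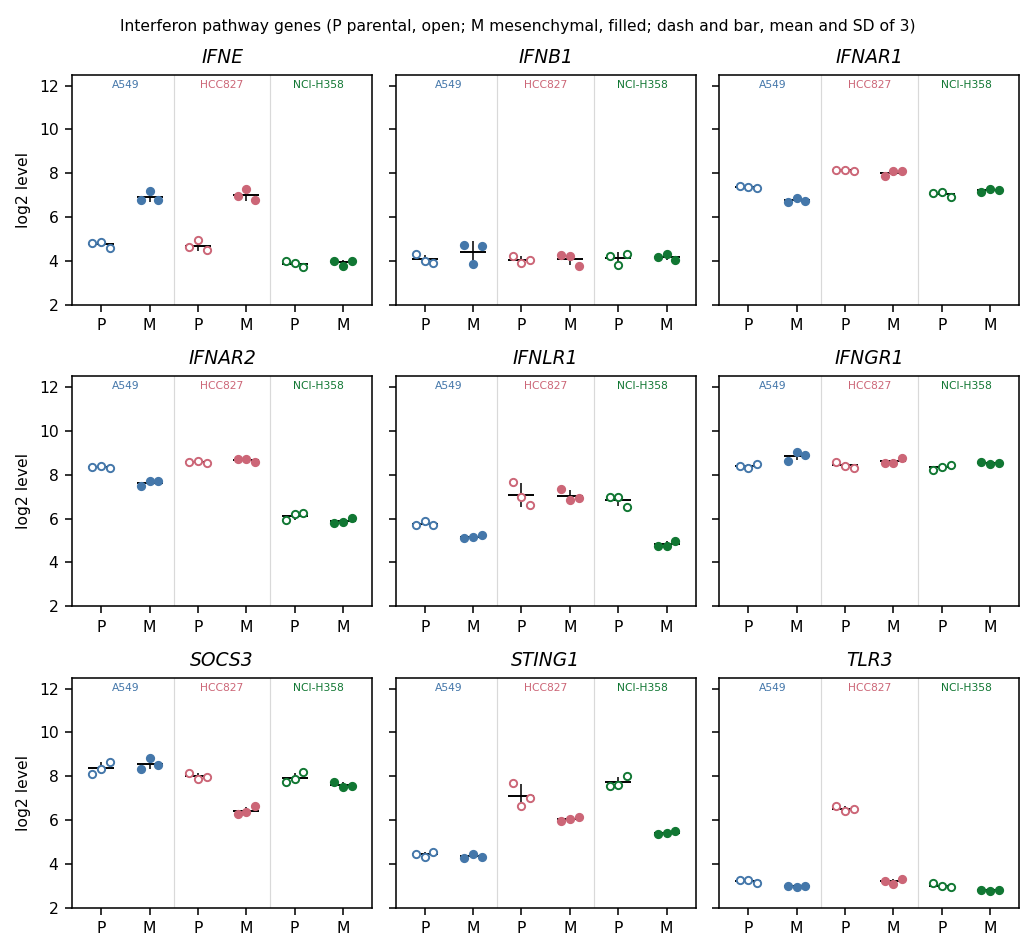
Log2 level of 9 interferon pathway genes on each of the 18 arrays (open, parental; filled, mesenchymal; dash and bar, mean and SD of 3 arrays). In mesenchymal cells IFNE is higher in A549 and HCC827 and IFNLR1 is lower in NCI-H358, and TLR3 reads above 6 in parental HCC827 cells alone.

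A list of 39 further interferon-induced genes that are no members was read in the same way. It had 3 genes higher (4.15% of all genes) and 3 lower (3.87%) in A549. In HCC827 limma called none higher (4.89%) and 9 lower (6.58%), with 1 higher at an unadjusted p under 0.05 and 8 called in all by the methods' t-test. In NCI-H358 limma called none higher (3.96%) and 18 lower (5.42%), with 2 higher at an unadjusted p under 0.05 and 18 called in all by the t-test. Its median log2 fold changes were -0.03, -0.38 and -0.80. In A549 PSMB9, a subunit of the immunoproteasome, fell by 2.75, GBP3 rose by 1.67 and APOL6 fell by 1.54. In HCC827 the largest changes were those of TNFSF10, which encodes the death ligand TRAIL (-3.55), APOL1 (-2.42) and LAMP3 (-1.64). In NCI-H358 they were those of RTP4 (-2.95), APOL6 (-2.89) and CASP1 (-2.61).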

How the data were processed

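RNA of 18 samples was measured on Affymetrix U133 Plus 2.0 arrays. The authors normalized the arrays with RMA, which corrects background, equalizes the distributions and summarizes each probe set, and deposited log2 values for 19849 genes with 1 probe set each. How that probe set was chosen is not given in the sources used here. The version of RMA and the genome build are not given either, so no gene coordinates are printed, and promoter windows carry their own build.

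Groups came from the labels. The study describes the 3 samples behind each expression value as biologically separate but made together, so p-values measure the spread within 1 experiment. Precision is limited by the number of arrays, 3 a group, for which the smallest two-sided p of an exact permutation test is 0.1. All 18 arrays were fitted at once with limma 3.58.1 (R 4.3.3, lmFit and eBayes, 6 groups, no covariate), with Benjamini-Hochberg adjustment over all 19849 genes. A gene was called, and is said to rise or fall, at an adjusted p below 0.05 and a fold above 2. The thresholds of the study, 1e-05 and 5-fold, were an alternative. The fit was tested on simulated data.

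The members and lists were chosen with earlier results of these data known. Named were members called in all lines or in opposite directions, the 5 largest called changes each way in each line, the 5 largest called differences between lines, ligands, receptors, SOCS1 and SOCS3, the 3 largest called changes of each other list, and markers that check the labels. Other members were named by role. Alternatives were other thresholds, a separate fit, an intensity trend, a filter on genes with a level above 6 on fewer than 3 arrays, median centring, quantile normalization, the methods' t-test and each array left out. Promoters were read from the RefSeq table. Other assays of the study were not analysed here. One gene of the pathway list is counted but not reported here.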

Additional observations from a re-analysis of the deposited data

Results flagged for a closer look

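The change upon EMT differed between lines, by a contrast of the changes in the limma fit at an adjusted p below 0.05 and a 2-fold difference, for 18 members between HCC827 and A549, 33 between NCI-H358 and A549 and 22 between NCI-H358 and HCC827. The count of 18 was 17 without the first parental HCC827 array and 14 with the first parental array of each line left out at once. Between HCC827 and A549 the largest differences were those of SAMD9 (-2.30), IFIT2 (-2.27), EPSTI1 (-2.13), HERC5 (2.09) and ISG15 (-2.07). Between NCI-H358 and A549 they were those of CMPK2 (-4.75), RSAD2 (-4.18), DDX60 (-3.87), SAMD9 (-3.43) and IFI44 (-3.42), and GBP1, which rose in A549 and fell in NCI-H358, differed by -3.27. IFITM2 and IFITM3 differed the other way, by 2.04 and 2.02. Parental A549 cells read 12 of the 41 members below 5 in the mean, which leaves little room to see a decrease in that line. Between NCI-H358 and HCC827 the largest were HERC5 (-4.08), DDX60 (-3.88), CMPK2 (-3.42), RSAD2 (-3.31) and IFIH1 (-2.97). Parental HCC827 cells read CMPK2 and RSAD2 below 5 in the mean, which leaves little room to see these fall in HCC827. Of the pathway genes, IFNE (-2.24), IFNLR1 (-1.96) and TLR3 (3.10, as measured against levels near the low end of the array) differed between NCI-H358 and HCC827, and STING1 (-2.21) between NCI-H358 and A549.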

How the results depend on the processing

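Counts of members and listed genes were within 1.5 times the reported ones under a separate fit, an intensity trend, the filter on dim genes, median centring, quantile normalization, the methods' t-test, and, an alternative chosen after seeing the data because the first parental array of HCC827 stood apart, the first parental array of each line left out at once. No called gene that the text names changed sign under any alternative. Median centring and quantile normalization each ended the calls of IFI35, UBE2L6 and the further interferon-induced gene PSMB8 in A549 and of STING1 in HCC827. Centring also ended that of PARP14 in HCC827, and the methods' t-test those of IFITM1, STING1 and APOL6 in HCC827. Quantile normalization also ended the called difference of change of GBP1 between HCC827 and A549 and that of XAF1 between NCI-H358 and A549. Only the threshold moved counts further. At the study's thresholds the members higher and lower were 0 and 0 in A549 and 0 and 2 in HCC827, 15 were lower in NCI-H358, the pathway genes changed were 0, 1 and 0 and the other interferon-induced genes 1, 2 and 5. Then 0, 14 and 6 members differed in their change between HCC827 and A549, NCI-H358 and A549, and NCI-H358 and HCC827, and 5 differed between parental NCI-H358 and HCC827. With no fold threshold, 11 members were higher and 16 lower in A549 and 3 and 35 in HCC827, the pathway genes changed were 21, 17 and 18 and the other induced genes 25, 27 and 34, the change differed for 35 (HCC827 and A549) and 34 (NCI-H358 and HCC827), and 33 differed between those parental lines. Above 1.5-fold, A549 had 7 higher and 15 lower, HCC827 had 2 higher, the pathway genes were 8, 10 and 8, the other induced genes in HCC827 were 16 and the parental difference of NCI-H358 and HCC827 was 24. With each array left out in turn, members lower were 8 to 10 in A549, 16 to 23 in HCC827 and 30 to 31 in NCI-H358, and members higher 3, 1 and 0. No paired analysis was possible because the replicate numbers only follow accession order and the labels pair no arrays. Low levels on the array, as for OAS2, the interferon ligands or the 12 members with a mean below 5 in parental A549 cells, leave little room to see a decrease.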
